A study of Homo sapiens with 6 samples.

Results

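The 7 genes described here are brakes of the cell cycle and parts of the machinery that removes them. They are *CDKN1B* and *CDKN2B*, which encode the CDK inhibitors p27 and p15, the ligase genes *SKP2*, *CKS1B* and *RBX1*, the cyclin gene *CCNE1*, and *WEE1*, which encodes a kinase that holds cells before mitosis. They were picked by name from the 758 genes of the deposited table, with the difference between aCT1 and control samples already known, so their values in this contrast are a description and no test of them is given. The cell line JIMT-1, an established HER2+ line from a trastuzumab-resistant human breast tumor, was treated with PBS (CTL, 3 samples) or with 250 µM aCT1 (3 samples), each for 24 h. The peptide aCT1 copies the end of the gap junction protein connexin 43, and a second, antennapedia-derived stretch lets it cross the cell membrane. The RNA was hybridized to the nCounter Breast Cancer 360 panel, which counts barcoded probes. The study asked whether aCT1 alters breast cancer signaling genes. Every sample is of the same cell line, and the labels do not say whether the 3 samples of a group came from separate cultures, so the spread between them may be technical.

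The recovered counts totaled 1437572 to 1494919 per sample, so depth differed little. Of the 758 genes 459 were tested, and all 7 are among them. The 7 genes carried between 5477 (*CDKN2B*) and 104472 (*CKS1B*) counts over the 6 samples, so counting alone gives standard errors of 0.0089 to 0.039 on their log2 fold changes. The label was checked against markers. The 5 HER2+ epithelial markers in the table (*ERBB2*, *GRB7*, *CDH1*, *CD24* and *KRT7*, of 6 listed) had 895 to 11186 normalized counts, with sums of 32781 to 35009 in CTL and 33238 to 36699 in aCT1. *CD24* varied within aCT1, with 1905, 1311 and 895 normalized counts in replicates 1, 2 and 3, and had 1552, 1288 and 1703 in CTL. The 2 immune markers in the table (of 7 listed) had 11.2 to 25.03 normalized counts, and the 4 stromal and endothelial markers (of 5 listed) 14.02 to 76.3. None was at 0, but whether counts this low exceed the background of the panel was not tested. The summed immune markers were 33.3 to 43.2 in CTL and 32.7 to 47.1 in aCT1. The summed stromal and endothelial markers were 131 to 134 in CTL and 115 to 119 in aCT1, which do not overlap. Taken singly, each of the 4 overlapped. The highest, *PECAM1*, had 76.3, 72.8 and 67.4 normalized counts in CTL and 71.1, 55.8 and 59.3 in aCT1. Of all genes tested, 5.45% were lower in aCT1 without overlap. The part of these markers in the results was not tested.

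As background, a cell leaves G1 when cyclin D with CDK4 or CDK6, and then cyclin E with CDK2, phosphorylate the RB protein and release E2F factors. p15 blocks CDK4 and CDK6 and is a known target of TGF-beta signaling. p27 binds and blocks the cyclin E and CDK2 complex. Phosphorylated p27 is marked for degradation by the ubiquitin ligase SCF, in which SKP2 is the substrate receptor, CKS1 (from *CKS1B*) the cofactor that lets SKP2 bind p27, and RBX1 the RING subunit that recruits the ubiquitin-conjugating enzyme. High SKP2 and low p27 protein are known features of aggressive breast cancers. Later in the cycle, WEE1 phosphorylates CDK1 and holds it inactive, and the CDC25 phosphatases reverse this. Much of this control acts on protein stability and phosphorylation, which an RNA count does not measure.

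In the aCT1 samples, 6 of the 7 genes had all of their values above all CTL values, and *CCNE1* did not. The same held for 12.4% of the 459 genes tested, and, because the genes were chosen with this contrast known, nothing is read from their count. The 6 are *CDKN2B*, *CDKN1B*, *WEE1*, *SKP2*, *CKS1B* and *RBX1*, in order of their mean difference, which ran from 12.8% down to 3.47%. The differences were small in percent. Over the 459 genes, limma gave an adjusted p under 0.05 for 0 genes, these 7 included, and an unadjusted p under 0.05 for 52 genes (11.3%), 36 of them higher and 16 lower. With edgeR 1 gene passed after adjustment, which is none of the 7. RNA of a whole culture cannot tell apart a change in the share of cells in a cycle phase and a change in RNA per cell.

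**Figure D1:**
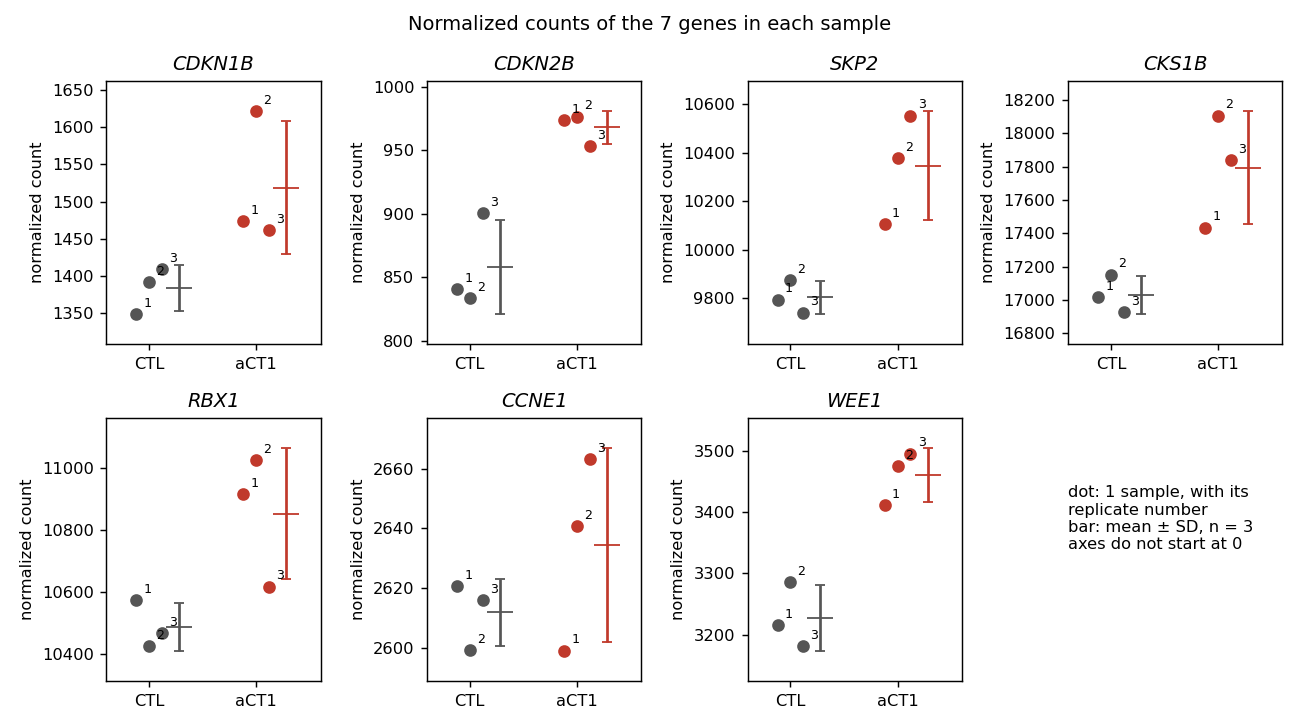
Normalized counts (y axis) of each of the 7 genes in the 3 CTL and the 3 aCT1 samples (x axis), with the replicate number beside each dot and the mean ± SD as a bar; the y axes do not start at 0. The aCT1 dots lie above all CTL dots in every panel except that of *CCNE1*, where aCT1 replicate 1 lies level with the lowest CTL sample.

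*CDKN1B*, the gene of p27, had 1349, 1392 and 1409 normalized counts in CTL replicates 1, 2 and 3. In aCT1 replicates 1, 2 and 3 it had 1474, 1621 and 1461 normalized counts. The groups did not overlap, and aCT1 replicate 2 stood well above the other two aCT1 samples. The means were 1384 ± 30.9 in CTL and 1519 ± 89.0 in aCT1 (SD, n = 3 each), a difference of 9.77% or a log2 fold change of 0.13 (limma standard error 0.049). Without aCT1 replicate 2 the log2 fold change was 0.085 and under quantile normalization, where the groups overlapped, it was 0.11.

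*CDKN2B*, the gene of p15, had the largest difference of the 7. It had 841, 833 and 901 normalized counts in the CTL samples and 974, 977 and 954 in the aCT1 samples. The aCT1 samples were close to each other, and CTL replicate 3 was the CTL sample nearest to them. The means were 858 ± 37.0 and 968 ± 12.7 (SD, n = 3 each), a difference of 12.8% or a log2 fold change of 0.17 (limma standard error 0.039). *CDKN2A*, its neighbor on the chromosome, had a log2 fold change of 0.059, and its groups overlapped.

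The stretch before the start site is shown for the pair of inhibitors, the pair of SCF subunits that hold p27, and *CCNE1*, which did not follow them. RefSeq promoters of GRCh38.p14 matched 6 of the 7 genes, all but *WEE1*. Each sequence is the 250 bases before the annotated start, 5′ to 3′ on the gene's strand, at chr12:12717118-12717367 (plus strand) for *CDKN1B*, chr9:22009306-22009555 (minus strand) for *CDKN2B*, chr5:36151861-36152110 (plus strand) for *SKP2*, chr1:154974431-154974680 (plus strand) for *CKS1B* and chr19:29811741-29811990 (plus strand) for *CCNE1*. Capitals mark matches on either strand to 4 motifs. The letters were CCAAT for the box of that name, GGGCGG for Sp1 and TTTGAA for CHR, an element of cell cycle genes. An E2F core was read as TTTGGCG, as its variant TTTCCCG, as the variant TTTCGCG or as the variant TTTGCCG. The forkhead letters GTAAACA were also searched.
CDKN1B: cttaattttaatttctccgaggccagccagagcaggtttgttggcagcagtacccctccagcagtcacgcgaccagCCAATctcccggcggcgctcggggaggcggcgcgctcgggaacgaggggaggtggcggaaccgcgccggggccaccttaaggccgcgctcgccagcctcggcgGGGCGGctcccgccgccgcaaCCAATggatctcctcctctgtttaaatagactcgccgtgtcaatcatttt
CDKN2B: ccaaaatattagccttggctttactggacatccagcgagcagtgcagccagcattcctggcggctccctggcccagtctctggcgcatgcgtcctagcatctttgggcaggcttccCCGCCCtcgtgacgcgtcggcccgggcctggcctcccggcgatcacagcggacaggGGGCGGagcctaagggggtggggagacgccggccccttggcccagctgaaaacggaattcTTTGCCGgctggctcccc
SKP2: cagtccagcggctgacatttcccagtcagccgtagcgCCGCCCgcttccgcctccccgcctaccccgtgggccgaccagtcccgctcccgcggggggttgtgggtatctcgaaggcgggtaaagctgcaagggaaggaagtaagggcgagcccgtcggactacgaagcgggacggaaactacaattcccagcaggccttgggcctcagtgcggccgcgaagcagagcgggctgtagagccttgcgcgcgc
CKS1B: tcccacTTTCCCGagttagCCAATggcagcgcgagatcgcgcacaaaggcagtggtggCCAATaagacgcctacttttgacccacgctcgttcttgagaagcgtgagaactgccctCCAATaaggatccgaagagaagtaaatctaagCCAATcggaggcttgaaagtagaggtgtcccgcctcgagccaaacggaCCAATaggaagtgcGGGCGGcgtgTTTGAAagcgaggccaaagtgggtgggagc
CCNE1: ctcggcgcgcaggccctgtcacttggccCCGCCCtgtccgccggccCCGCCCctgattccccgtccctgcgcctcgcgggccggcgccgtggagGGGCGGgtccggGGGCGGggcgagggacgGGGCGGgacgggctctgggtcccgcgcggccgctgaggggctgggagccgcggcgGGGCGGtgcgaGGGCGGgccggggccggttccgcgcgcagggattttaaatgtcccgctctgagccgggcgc
Of the motifs searched, only Sp1 was found in every window. Sp1 letters were found in all 6 windows, from 1 match in *CDKN1B*, *SKP2* and *CKS1B* to 7 in *CCNE1*, and are held by 42.6% of 35116 such windows. CCAAT letters were found 2 times in *CDKN1B* and 5 times in *CKS1B* and in none of the other windows, against 32% of all windows. An E2F core was found in *CDKN2B*, 18 bases before the start, and in *CKS1B*, 244 bases before it (7.33% of all windows). *CKS1B* alone of the 6 had CHR letters, 30 bases before the start (13.3% of all windows), and none had the forkhead letters (2.98%). No match overlapped a match to another motif in the windows shown. The GC content was 55.2% in *CKS1B*, 64.4% in *CDKN1B*, 66.4% in *CDKN2B*, 67.6% in *SKP2*, 76.8% in *RBX1* and 81.2% in *CCNE1*, with a median of 58% over all windows. A match describes letters and is not a bound site.

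The 3 SCF genes were each slightly higher in aCT1. *SKP2*, the receptor that recognizes p27, had 9794, 9875 and 9741 normalized counts in the CTL samples and 10107, 10376 and 10553 in the aCT1 samples. The lowest aCT1 value was above the highest CTL value by 0.033 on the log2 scale. The means were 9803 ± 67.9 and 10345 ± 225 (SD, n = 3 each), a difference of 5.53% or a log2 fold change of 0.077 (limma standard error 0.030).

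*CKS1B*, the cofactor of SKP2, had 17016, 17153 and 16927 normalized counts in the CTL samples and 17434, 18106 and 17841 in the aCT1 samples. The 3 CTL samples lay within 0.019 of each other on the log2 scale, and the 3 aCT1 samples within 0.055. The means were 17032 ± 114 and 17794 ± 338 (SD, n = 3 each), a difference of 4.47% or a log2 fold change of 0.063 (limma standard error 0.029).

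*RBX1*, the RING subunit shared by many cullin ligases, had 10573, 10425 and 10466 normalized counts in the CTL samples and 10916, 11024 and 10617 in the aCT1 samples. aCT1 replicate 3 cleared CTL replicate 1 by only 0.0060 on the log2 scale, the narrowest gap of the 6 genes. The means were 10488 ± 76.6 and 10852 ± 211 (SD, n = 3 each), a difference of 3.47% or a log2 fold change of 0.049 (limma standard error 0.029). The separation of *RBX1* ended with median centring, with scaling to total counts and with quantile normalization, and under the last its log2 fold change was 0.0070. *SKP1*, the SCF adaptor, had a log2 fold change of 0.030 and overlapping groups.

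*CCNE1*, which encodes cyclin E1, showed the least difference. It had 2621, 2599 and 2616 normalized counts in the CTL samples and 2599, 2641 and 2663 in the aCT1 samples. aCT1 replicates 2 and 3 lay above the CTL samples, and aCT1 replicate 1 lay at the lowest CTL value. The means were 2612 ± 11.2 and 2634 ± 32.6 (SD, n = 3 each), a difference of 0.860% or a log2 fold change of 0.012 (limma standard error 0.027). Without aCT1 replicate 1 its log2 fold change was 0.022 and its groups no longer overlapped, and without aCT1 replicate 3 it was 0.0044. *CCNE2*, the other cyclin E gene, had a log2 fold change of -0.070 and overlapping groups.

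*WEE1*, the kinase that restrains CDK1 before mitosis, had 3216, 3286 and 3181 normalized counts in the CTL samples and 3412, 3476 and 3496 in the aCT1 samples. Its lowest aCT1 value was 0.054 above its highest CTL value on the log2 scale, a wider gap than the spread within either group. The means were 3227 ± 53.7 and 3461 ± 43.9 (SD, n = 3 each), a difference of 7.24% or a log2 fold change of 0.10 (limma standard error 0.029). *PKMYT1*, the related membrane-bound kinase that also acts on CDK1, had a log2 fold change of 0.015 and overlapping groups.

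Set among all genes tested, the 7 log2 fold changes ran from 0.012 to 0.17 with a median of 0.077, and the 459 had a median of 0.014 with quartiles of -0.032 and 0.063. Ranked from the highest log2 fold change of the 459, *CDKN2B* was at 20, *CDKN1B* at 37, *WEE1* at 60, *SKP2* at 93, *CKS1B* at 115, *RBX1* at 143 and *CCNE1* at 239. The table as a whole leaned the same way, with 277 of 459 genes (60.3%) above 0. *CCNE1* lay at the middle of all genes, and *RBX1* and *CKS1B* near the upper quartile. These positions follow from the choice of the genes.

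**Figure D2:**
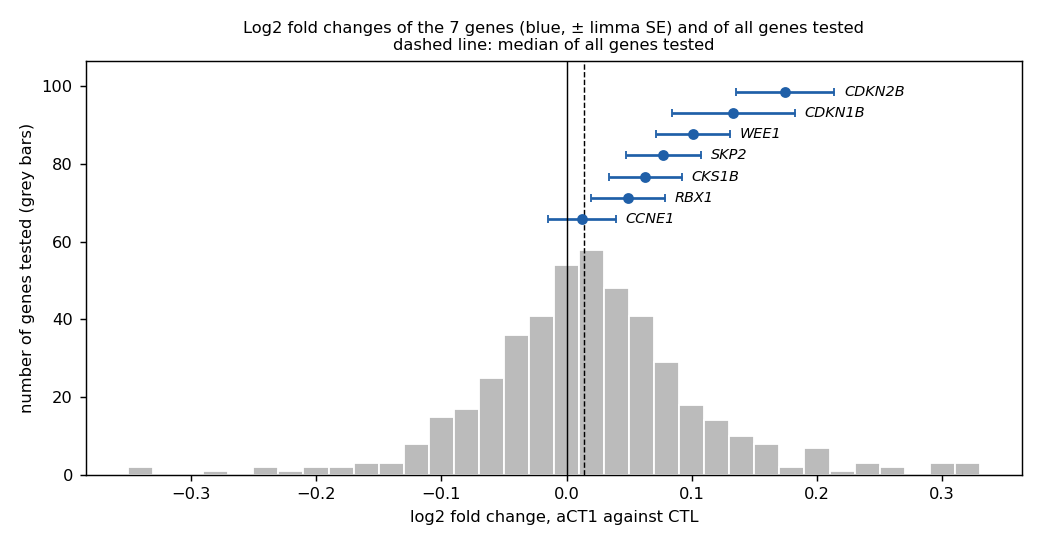
Log2 fold changes of aCT1 against CTL (x axis) for the 7 genes (blue dots with the limma standard error, stacked by size) above a histogram of all 459 genes tested (y axis, number of genes), with their median as a dashed line. *CDKN2B*, at 0.17, is farthest to the right of the 7, and *CCNE1*, at 0.012, lies beside the median of 0.014.

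The spread of the recovered counts was set against counting noise as a chi-square per degree of freedom, which is near 1 where the 3 samples differ by counting alone. In the CTL samples it ran from 0.0486 (*CCNE1*) to 1.59 (*CDKN2B*) over the 7 genes. In the aCT1 samples it was 6.44 for *CKS1B*, 5.20 for *CDKN1B*, 4.83 for *SKP2* and 4.04 for *RBX1*, but 0.163 for *CDKN2B*, 0.399 for *CCNE1* and 0.553 for *WEE1*. With 3 samples a group these values are imprecise and were not tested, and over the genes of the table with at least 10 counts in a pair, pairs of samples within a group gave 1.67 to 3.13. The highest aCT1 value was in replicate 2 for 4 genes (*CDKN1B*, *CDKN2B*, *CKS1B* and *RBX1*) and in replicate 3 for the other 3, and in replicate 1 for 0 genes.

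Ratios of 2 genes within a sample do not change when all genes of that sample are scaled by 1 factor, so 6 of them were taken. Quantile normalization, which applies no single factor, does change them. They are log2 ratios of normalized counts, and only their differences between samples are read, since probes of different genes count with different efficiency. The log2 ratio of *CDKN1B* to *SKP2* was -2.86, -2.83 and -2.79 in the CTL samples and -2.78, -2.68 and -2.85 in the aCT1 samples. The groups overlapped, because aCT1 replicate 3 lay among the CTL samples. The ratio of *CDKN1B* to *CKS1B* overlapped in the same way, with means of -3.62 ± 0.035 in CTL and -3.55 ± 0.065 in aCT1 (SD, n = 3 each). The inhibitor thus differed between groups by more than its ligase in the mean, by 0.056 and 0.070, but not in every sample, and without aCT1 replicate 2 these differences were 0.010 and 0.035.

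Against *CCNE1*, both inhibitors were higher in every aCT1 sample. The log2 ratio of *CDKN1B* to *CCNE1* was -0.96, -0.90 and -0.89 in the CTL samples and -0.82, -0.70 and -0.87 in the aCT1 samples, a difference of 0.12 between the means. That of *CDKN2B* to *CCNE1* was -1.64, -1.64 and -1.54 in the CTL samples and -1.42, -1.44 and -1.48 in the aCT1 samples, a difference of 0.16. Neither pair of groups overlapped, and without aCT1 replicate 2 the first difference was 0.075. These ratios contain genes chosen for this contrast and are a description. With a log2 fold change of 0.012 for *CCNE1*, they largely restate the inhibitors' own values of 0.13 (*CDKN1B*) and 0.17 (*CDKN2B*).

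The ratio of *WEE1* to the phosphatases that oppose it was also taken. Its log2 ratio to *CDC25C* was 1.68, 1.65 and 1.57 in the CTL samples and 1.68, 1.72 and 1.72 in the aCT1 samples. These groups did not overlap, although CTL replicate 1 and aCT1 replicate 1 differed by less than the SD of either group. The ratio of *WEE1* to *CDC25B* overlapped, with means of 0.27 ± 0.025 in CTL and 0.31 ± 0.037 in aCT1 (SD, n = 3 each), and its difference of 0.037 was 0.022 without aCT1 replicate 3, 0.058 without aCT1 replicate 2 and -0.00078 under quantile normalization. Without CTL replicate 3 the difference of the *CDC25C* ratio was 0.043 in place of 0.076.

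**Figure D3:**
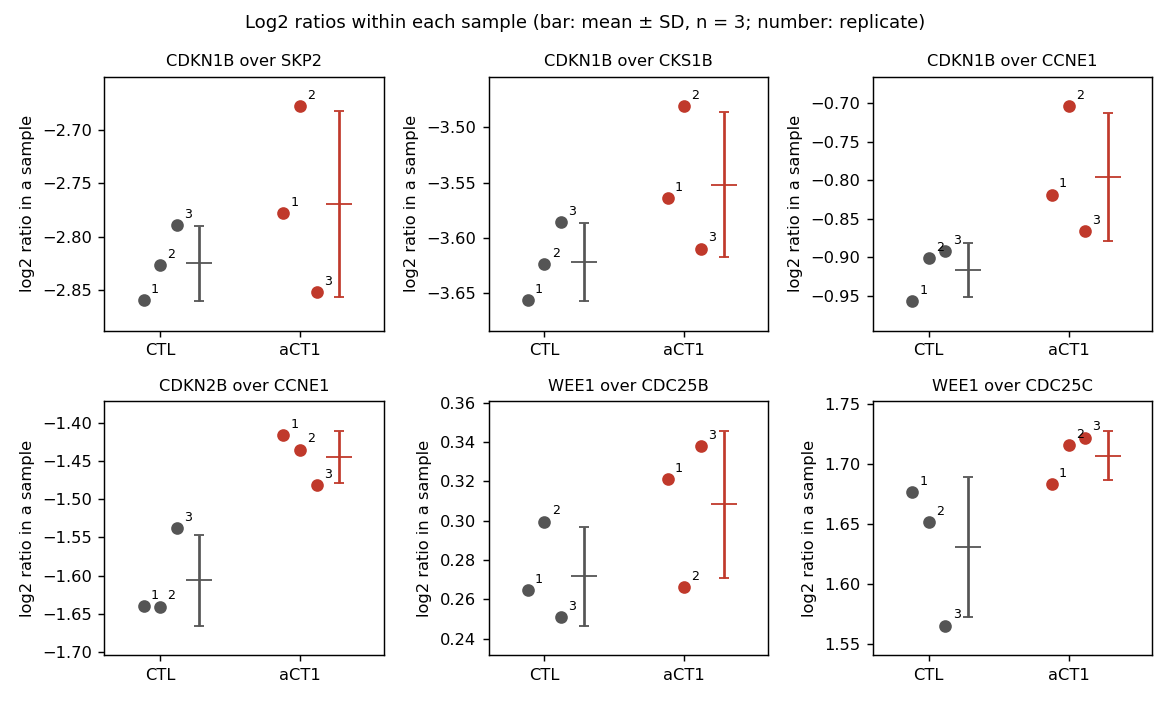
Log2 ratio of 2 genes within each sample (y axis) for 6 pairs in the CTL and aCT1 samples (x axis), with the replicate number beside each dot and the mean ± SD as a bar. The aCT1 dots lie above all CTL dots for *CDKN1B* over *CCNE1*, *CDKN2B* over *CCNE1* and *WEE1* over *CDC25C*, and overlap them in the other 3 panels.

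Of 71 further genes in 6 lists of the cell cycle and of TGF-beta signaling, the table held 57 and 55 were tested. Of these 55, 38 were higher and 17 lower in aCT1, where 60.3% of all 459 genes were higher. Their log2 fold changes ran from -0.13 to 0.32, with a median of 0.012 against 0.014 over all 459 genes. In 7 of them (12.7%) all aCT1 values lay above all CTL values, against 12.4% of all genes tested, and in 0 of them below, against 5.45%. limma gave 2 of the 55 an unadjusted p under 0.05, both higher, against 7.84% of all genes higher and 3.49% lower, and gave 0 an adjusted p under 0.05. The lists were drawn up with earlier results of these data known. The counts of higher genes in each list below stand beside the same 60.3% of all genes.

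Whether the other CDK inhibitor genes differ from *CDKN1B* and *CDKN2B* was not tested. Of *CDKN1A*, *CDKN1C*, *CDKN2A*, *CDKN2C*, *CDKN2D* and *CDKN3*, 4 were above 0 and 2 below, from -0.13 to 0.059, and the groups overlapped in all 6. The groups overlapped in most genes tested, as 17.9% of the 459 were without overlap in either direction. The lowest value, -0.13, was that of *CDKN1C*, the gene of p57, whose limma standard error of 0.16 was wide at 39.1 ± 4.23 normalized counts in CTL and 36.2 ± 7.24 in aCT1 (SD, n = 3 each). *CDKN2A*, which encodes p16 and ARF, had the smallest p of this list, with 3039 ± 31.2 normalized counts in CTL and 3168 ± 118 in aCT1 (SD, n = 3 each) and an adjusted limma p of 0.530. Its log2 fold change of 0.059 was 0.091 without aCT1 replicate 1. *CDKN3*, a phosphatase that acts on CDKs, came next with a log2 fold change of 0.037, which was 0.011 without aCT1 replicate 3, 0.021 without CTL replicate 3 and 0.062 without CTL replicate 1. *CDKN1A*, which encodes p21, had a log2 fold change of 0.0039.

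In the ubiquitin ligase list, 5 of 10 genes were tested, and 4 were higher and 1 lower. *CDC20*, the activator of the anaphase-promoting complex, had 3254, 3384 and 3258 normalized counts in CTL and 3396, 3398 and 3447 in aCT1, a log2 fold change of 0.050 without overlap. Its adjusted p from limma was 0.529. It was at 0 under quantile normalization. *SMURF2*, a ligase of the TGF-beta pathway, had a log2 fold change of -0.039, which was -0.020 without aCT1 replicate 1, -0.024 without CTL replicate 2 and -0.062 without CTL replicate 3. *UBE2C*, the conjugating enzyme of the anaphase-promoting complex, was at 0.0025.

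Among the G1 cyclins, kinases and RB and E2F genes, 7 of 12 were higher and 5 lower. In 2 of them (16.7%) all aCT1 values lay above all CTL values, against 12.4% of all genes tested. *E2F1*, the factor that drives S phase genes, had 685, 611 and 683 normalized counts in CTL and 714, 709 and 733 in aCT1, a log2 fold change of 0.13 (limma standard error 0.052, unadjusted p = 0.0512, adjusted p = 0.432). The log2 fold change of *E2F1* was 0.072 without CTL replicate 2, its lowest sample, and 0.064 with quantile normalization, and its unadjusted p passed 0.05 in 6 of 17 alternatives. *CCND1*, the gene of cyclin D1, had 10212, 10544 and 10345 normalized counts in CTL and 10549, 10964 and 11134 in aCT1, a log2 fold change of 0.070. Its adjusted p from limma was 0.464. The gap between its groups was narrow, from CTL replicate 2 to aCT1 replicate 1, and with quantile normalization its log2 fold change was 0.038. *CDK4*, *CDK6*, *RB1* and *MYC* had log2 fold changes of 0.028, 0.0053, -0.051 and -0.0011, and their groups overlapped.

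In the list of the G2 checkpoint and entry into mitosis, 10 of 13 genes were higher and 3 lower. In 3 genes (23.1%) all aCT1 values lay above all CTL values, against 12.4% of all genes tested. *AURKB*, a kinase of chromosome segregation, had 2441, 2567 and 2379.6 normalized counts in CTL and 2610.1, 2624 and 2691 in aCT1, a log2 fold change of 0.10 (limma standard error 0.038, unadjusted p = 0.0365, adjusted p = 0.394). It was the only gene of this list with an unadjusted p under 0.05. Leaving out either CTL replicate 1 or 3 or any aCT1 sample brought its unadjusted limma p to between 0.0626 and 0.106. With the replicate number as a block it was 0.0809 in limma, and in a limma fit to all genes of the table it was 0.0654. *CDC25B* and *SFN*, the gene of 14-3-3 sigma, also had groups without overlap, with log2 fold changes of 0.064 and 0.060, the first of which was 0.040 without aCT1 replicate 2. *CDK1* and *CCNB1*, the pair that WEE1 restrains, had log2 fold changes of 0.012 and -0.036.

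The S phase and proliferation list held no gene without overlap, where 17.9% of all genes tested had groups without overlap in either direction. Of its 13 genes 8 were higher and 5 lower, with a median log2 fold change of 0.0064. *PCNA*, the sliding clamp of DNA replication, had the smallest p, with 3571 ± 138 normalized counts in CTL and 3782 ± 99.6 in aCT1 (SD, n = 3 each) and an adjusted limma p of 0.464. *FOXM1*, a factor of G2 genes, had a log2 fold change of 0.057, which was 0.036 without aCT1 replicate 3. *MKI67*, the proliferation marker Ki-67, and *TOP2A* had log2 fold changes of 0.033 and 0.0032.

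In the TGF-beta arm that acts on *CDKN2B*, 5 of 6 genes were higher and 1 lower, where 60.3% of all genes tested were higher. *TGFB2*, a ligand of the pathway, had 224, 254 and 250.3 normalized counts in CTL and 290.3, 314 and 301 in aCT1, a log2 fold change of 0.32 (limma standard error 0.059, unadjusted p = 0.00168, adjusted p = 0.257). All 3 of its aCT1 values were above its CTL values, and its log2 fold change was the largest of the 459. *TGFBR2*, the receptor, had 611 ± 20.6 normalized counts in CTL and 574 ± 22.2 in aCT1 (SD, n = 3 each), a log2 fold change of -0.090. *TGFB1*, *SMAD3* and *SMAD4* had log2 fold changes of 0.00071, 0.092 and 0.017, and their groups overlapped.

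**Figure D4:**
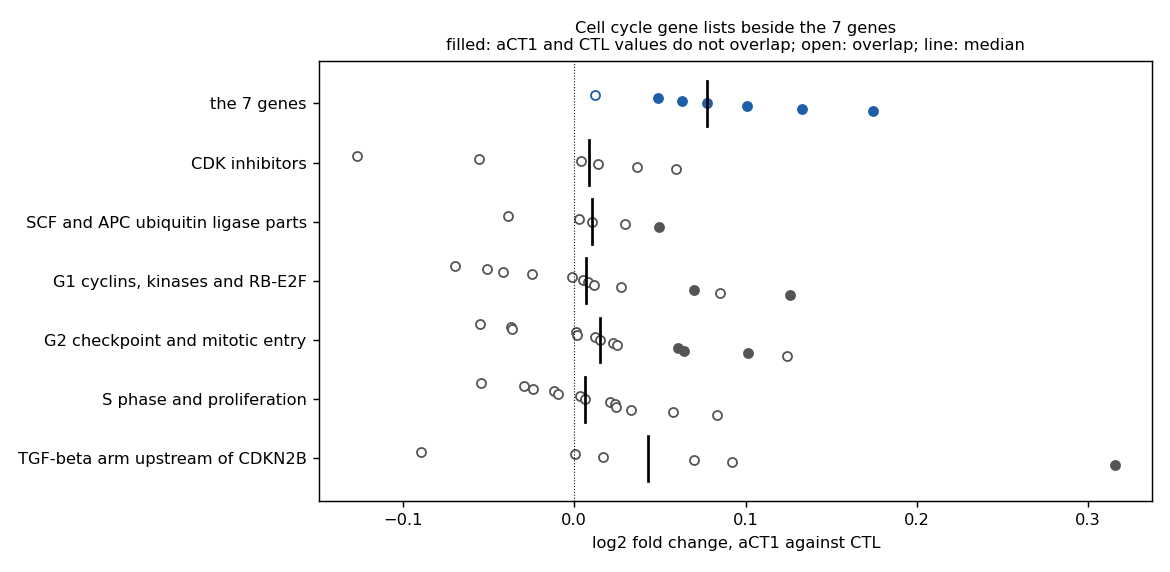
Log2 fold change of aCT1 against CTL (x axis) for the 7 genes (blue) and for the tested genes of 6 cell cycle and TGF-beta lists (grey), filled where the groups do not overlap, with the median of each list as a line. The list medians lie between 0.0064 and 0.043 and that of the 7 genes, which were chosen for this contrast, at 0.077.

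For each of the 7 genes, the gene of the other 452 tested with the most similar course over the 6 samples was found as the smallest root mean square difference of log2 values, after each gene was centred on its mean. It was *LEPR*, the leptin receptor, for *CDKN1B* (0.021), *BORCS7*, part of a complex that positions lysosomes, for *CDKN2B* (0.025), and *CCND1* for *SKP2* (0.012). For *CKS1B* it was *BAX*, a pro-apoptotic factor (0.0094), for *RBX1* *PPARG*, a nuclear receptor (0.0096), and for *WEE1* *KIF2C*, a mitotic kinesin (0.014). These differences are smaller than the genes' own root mean square variation of 0.030 to 0.095. Each is the smallest of 452, and that variation includes the group difference for which the genes were chosen. A small difference was therefore likely and is not read as a shared course. For *CCNE1* the nearest gene was *AURKA*, at 0.0137, which is above its own variation of 0.0125, so no gene is named as similar to it.

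Other scalings and single samples moved the 7 values by different amounts. With each sample left out in turn, all 7 log2 fold changes stayed above 0, from 0.15 to 0.21 for *CDKN2B* and from 0.091 to 0.11 for *WEE1*. For the 6 genes without overlap this sign was fixed in advance, and only that of *CCNE1* could have changed. Quantile normalization lowered 6 of the 7, most of all *RBX1*, and brought *WEE1* to 0.071. It left 4 genes without overlap (*CDKN2B*, *SKP2*, *CKS1B* and *WEE1*), where 7.63% of all genes were higher without overlap. Median centring left 5, all but *RBX1* and *CCNE1*, against 10% of all genes, and scaling to total counts left the same 5, against 12.6%.

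**Figure D5:**
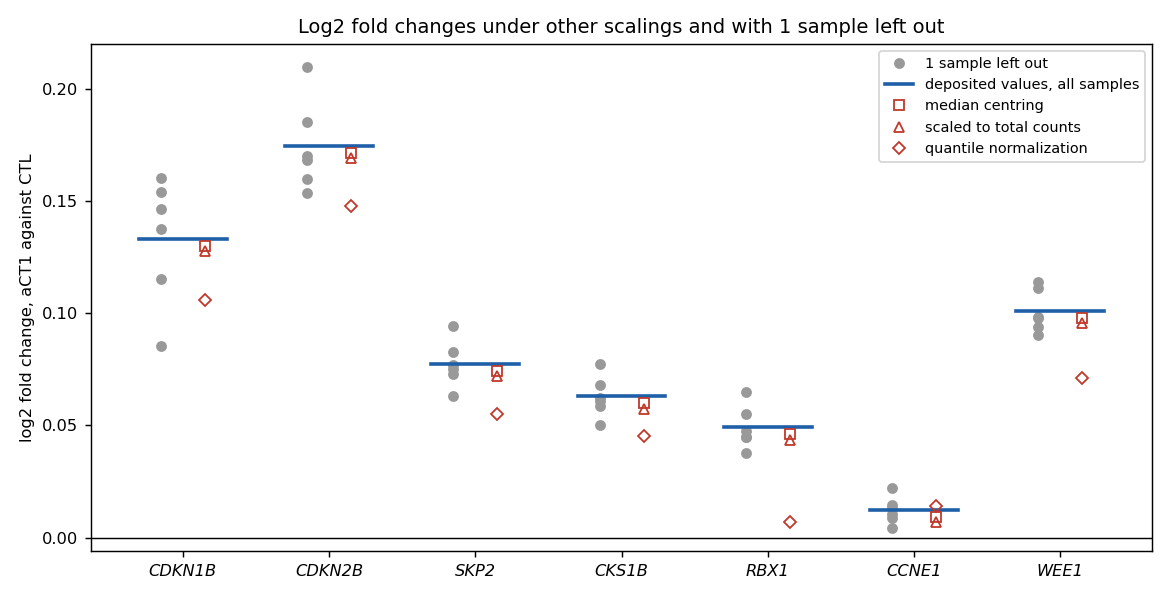
Log2 fold change of aCT1 against CTL (y axis) for each of the 7 genes (x axis) from the deposited values (blue line), with 1 sample left out (grey dots) and under 3 other scalings (red symbols). All symbols lie above 0, with *CDKN1B* lowest at 0.085 without aCT1 replicate 2 and *RBX1* lowest at 0.0070 under quantile normalization. Leaving out a sample could not bring a gene without overlap to 0 or below.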

How the data were processed

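Total RNA of JIMT-1 cells (3 CTL and 3 aCT1 samples) was counted with barcoded probes. With nSolver 4.0, the authors scaled the counts by housekeeping genes. They deposited a linear signal for 758 genes, together with log2 values that are its logarithm. Whether positive controls or background entered is not given in the sources used here. In each sample 100% of the deposited linear values were whole multiples of a single factor, to within 0.01 of a step, which gave recovered counts. The recovered counts of 2 samples of a group differed by more than counting noise in all 6 pairs (chi-square per degree of freedom 1.67 to 3.13).

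The 459 genes for which the study lists statistics were compared between aCT1 and CTL by limma (version 3.58.1, R version 4.3.3), fitted to the log2 values, with Benjamini-Hochberg adjustment over all of them and a threshold of 0.05. The p-values are two-sided. They set a difference between groups against the spread between these samples only, which limma moderates over the genes fitted. As an alternative, the recovered counts went through edgeR (version 4.0.16). The rest were an unmoderated linear model, a trended variance, a pseudocount of 1 or 10, median centring, total counts, quantile normalization, a mean of at least 50, all 758 genes, the replicate number as a block, and each sample left out. The code was tested on simulated data. The 7 genes and the lists were chosen with earlier results of these data known. The text names the 7 genes, the genes of each list with an unadjusted p under 0.05 and the 2 of smallest p, the most similar gene of each of the 7, and, outside this rule and after their values were seen, other list genes for their roles. The ratio pairs were set together with the lists. Gene names matched RefSeq for all 758 genes.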

Additional observations from a re-analysis of the deposited data

How the results depend on the processing

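At an unadjusted p under 0.05 limma called 52 genes, a number that lay between 47 and 68 under the other settings and between 35 and 58 with 1 sample left out. After adjustment 0 genes passed in limma, and 1 with a variance trend (*SFRP1*), 1 with edgeR (*SFRP1*) and 1 over all genes of the table (*CPA3*), named after their values were seen. edgeR gave 64 genes an unadjusted p under 0.05. Of the 52 genes 69.2% were higher in aCT1. Other settings called other sets of genes. The share higher was 55.8% of 52 genes with median centring, 48.5% of 68 with quantile normalization and 48.6% of 37 without aCT1 replicate 2. The number of genes in the 6 lists with an unadjusted p under 0.05 was 2, became 6 with a variance trend, 6 with quantile normalization, 6 with edgeR and 1 over all genes of the table, and ranged from 1 to 6 with 1 sample left out (6 without CTL replicate 3, 1 without aCT1 replicate 3). The cause was not tested. The difference of the ratio of *WEE1* to *CDC25B* was 0.037 and became -0.00078 with quantile normalization. The log2 fold changes of the 7 genes, chosen with this contrast known, stayed above 0. Of the alternatives, 5 leave these values as they are. For the 6 genes without overlap, leaving out 1 sample or adding a pseudocount could not bring the value to 0 or below either. Among the 12 named list genes, 7 of 204 values no longer passed the unadjusted threshold, all for *AURKB*, 18 newly passed it, and 0 changed direction.

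Adding the replicate block, as for paired samples, left 47 genes with an unadjusted p under 0.05. The list genes among them were again 2, but *AURKB* was not one of these. Deviations of same-numbered samples correlated at -0.014, 0.192 and -0.154 across genes, so the labels' numbers were not taken as pairs. Not every sample correlated best with its own number. The depth limits *CDKN2B* most, where counting alone gives a standard error of 0.039, as large as that of limma.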

Other observations

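2 genes of the lists lay outside the 459 genes tested. *CCND2*, the gene of cyclin D2, had 10.8 to 17.9 normalized counts in the CTL samples and 12.95 to 17.4 in the aCT1 samples. *TGFB3*, a ligand of the TGF-beta pathway, had 17.6 to 19.1 normalized counts in the CTL samples and 9.96 to 22.5 in the aCT1 samples. The groups overlapped for both genes.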
